A study of Mus musculus with 23 samples.

Results

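The genes described here are Bap1, Asxl1, Asxl2, Asxl3 and Usp16, which encode enzymes and cofactors that remove the ubiquitin mark H2AK119ub1 from histone H2A. They were chosen by name, and all 5 are among the 23369 gene names in the deposited RNA-seq tables, each with 1 row. Expression was measured in mouse Kdm2b fl/fl embryonic stem cells (ESCs), a line raised from crossed mice whose floxed allele was made in MS12 cells and which also carries ERT2-Cre in the Rosa26 locus, so the floxed Kdm2b alleles and the Cre are present in both groups. The groups are 3 samples labelled untreated and 3 labelled as cultured with 4-hydroxytamoxifen (800 nM in the sample labels, 800 µM in the text of the series) for 72 hr, which removes the exon encoding most of the ZF-CxxC domain of KDM2B. The cells were used at passage p10-p20, were grown on inactivated mouse embryonic fibroblast feeders and were left overnight without feeders before use. Group names follow the labels of the samples. File names state the reverse for all 6 of them, and if those were right every difference given here would have the opposite sign at the same size.

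PRC1 complexes, built around RING1A or RING1B, place a single ubiquitin on a lysine near the end of H2A (H2AK119ub1), and KDM2B brings the PCGF1 variant of PRC1 to CpG islands through its ZF-CxxC domain, which binds nonmethylated CpG. BAP1 is a ubiquitin C-terminal hydrolase that removes this mark when it is bound by an ASXL protein, and ASXL1, ASXL2 and ASXL3 are alternative partners whose DEUBAD domain activates it in the complex called PR-DUB. USP16 is a separate ubiquitin-specific protease for H2A, known for its part in mitosis and in gene activation during ESC differentiation. The comparison asks whether the transcripts of the genes that erase H2AK119ub1 differed in level after tamoxifen, which removes the domain that targets a writer of this mark. No tamoxifen-treated cells without the floxed alleles or without the Cre are among the samples. Effects of the drug, of the active Cre and of the lost exon therefore cannot be told apart.

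Because the ZF-CxxC domain reads CpG, the bases before the start of the 3 members with transcript levels high enough to be tested are shown, read from RefSeq on the GRCm38.p6 build in the direction of transcription (plus strand for each), with every CG in capitals. The Bap1 window covers 250 bases at chr14:31251239-31251488 and the Asxl1 window 250 bases at chr2:153345580-153345829. For Asxl2, 109 bases at chr12:3426748-3426856 are shown, the stretch up to the start of the neighbouring 1110002L01Rik on the other strand.
Bap1: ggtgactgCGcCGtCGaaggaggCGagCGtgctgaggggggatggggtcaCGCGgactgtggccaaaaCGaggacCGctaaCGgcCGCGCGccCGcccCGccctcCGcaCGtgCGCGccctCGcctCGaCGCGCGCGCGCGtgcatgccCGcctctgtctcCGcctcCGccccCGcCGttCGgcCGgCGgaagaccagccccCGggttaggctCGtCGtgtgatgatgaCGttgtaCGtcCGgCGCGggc
Asxl1: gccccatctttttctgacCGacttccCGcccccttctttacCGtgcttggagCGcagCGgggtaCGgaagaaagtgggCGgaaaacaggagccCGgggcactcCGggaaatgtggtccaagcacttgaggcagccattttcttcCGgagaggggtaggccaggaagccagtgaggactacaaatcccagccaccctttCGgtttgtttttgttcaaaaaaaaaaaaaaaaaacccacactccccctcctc
Asxl2: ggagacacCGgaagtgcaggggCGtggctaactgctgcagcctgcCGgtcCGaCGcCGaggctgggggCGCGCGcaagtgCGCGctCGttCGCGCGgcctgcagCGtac
The window of Bap1 holds 43 CG pairs, and 99.3% of the 32841 RefSeq windows of 250 bases have fewer. In the window before Asxl2 31 CG pairs were counted over 250 bases (94.8% of windows have fewer), 16 of them in the stretch shown, and the Asxl1 window has 11 (64.4% have fewer). Over all windows the median was 6, and 92.1% held at least 1 CG. The count for Asxl1 depends on the start used, since the 250 bases before its start in the deposited tables, read from the mm9 assembly, hold 38 against 43 for Bap1, 31 for Asxl2, 14 for Asxl3 and 12 for Usp16. RefSeq entries were matched for 4 of the 5 members, and Asxl3 was not matched. A CG count describes these letters and is no measure of KDM2B binding, which was not analysed here.

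Transcript levels are given as FPKM, fragments scaled for gene model length and for the library. This allows levels of different genes to be compared within a sample. The kind of library scaling was not checked here. Bap1 had the highest level of the 5 genes, followed by Asxl1, Asxl2 and Asxl3, and Usp16 was listed at 0 in every sample. Bap1 exceeded Asxl1 by 1.05-fold to 1.78-fold across the 6 samples, with the smallest gap in tamoxifen replicate 3. Asxl1 exceeded Asxl2 by 2.63-fold to 5.87-fold. The step from Asxl2 to Asxl3 was the widest of the 3, at 22.1-fold to 32.7-fold. Each gene was higher than the next in 6 of 6 samples and the ranges of neighbouring genes did not overlap (exact sign permutation within samples, two-sided, p = 0.03125 for each of the 3 neighbouring pairs, also 0.03125 after Benjamini-Hochberg adjustment, the smallest value that 6 samples can give). The order was read from the same levels, and samples that share a replicate number are not independent. Over the means of the 3 replicate numbers, a comparison chosen after seeing the data, the exact sign permutation p was 0.25 for each pair, the smallest that 3 can give.

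Bap1 (chr14:32064675-32073115, plus strand, mm9) encodes the catalytic subunit. Its FPKM was 39.5, 31.2 and 33.8 in untreated replicates 1, 2 and 3 and 34.0, 31.1 and 31.6 in tamoxifen replicates 1, 2 and 3. Untreated replicate 1 stood above the other 5 samples, which lay within 3 FPKM of each other, and the groups overlapped. That value lay just above its own deposited upper bound of 39.4 FPKM, the only 1 of 30 member values outside its bounds, and without this sample the log2 difference given below was -0.011. The means were 34.8 ± 4.23 (SD, n = 3) untreated and 32.2 ± 1.52 (SD, n = 3) with tamoxifen. On the log2(FPKM + 0.1) scale the difference was -0.10 (standard error 0.198, adjusted p = 0.999 by limma with Benjamini-Hochberg adjustment over 12997 genes tested). The 95% interval of that difference runs from 0.680-fold to 1.27-fold, and from 0.799-fold to 1.08-fold when the replicate number is a block (limma adjusted p = 0.485). These are whole-culture RNA measurements, in which fewer cells of a type and less RNA per cell cannot be told apart.

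Asxl1 (chr2:153171875-153229743, plus strand) encodes the ASXL partner with the highest transcript level here. Its FPKM was 22.2, 21.7 and 24.8 in the untreated replicates and 20.4, 23.6 and 30.2 in the tamoxifen replicates. The tamoxifen group held both the lowest and the highest sample, so the untreated values lay inside its range. Means were 22.9 ± 1.63 (SD, n = 3) untreated and 24.7 ± 5.01 (SD, n = 3) with tamoxifen, a log2 difference of 0.094 (standard error 0.219, limma adjusted p = 0.999). The fold had a 95% interval of 0.755 to 1.51, narrowing to 0.894 to 1.27 with the block (limma adjusted p = 0.592). The direction of Asxl1 rests on 1 library, because without tamoxifen replicate 3 the log2 difference was -0.059.

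Asxl2 (chr12:3426857-3506849, plus strand) encodes another ASXL partner of BAP1. It measured 4.62, 8.25 and 8.34 FPKM in the untreated replicates and 3.47, 7.06 and 7.02 FPKM in the tamoxifen replicates. Replicate 1 was the lowest of each group, and within each replicate number the tamoxifen sample was below the untreated one. Group means were 7.07 ± 2.12 (SD, n = 3) untreated and 5.85 ± 2.06 (SD, n = 3) with tamoxifen, and the groups overlapped. The log2 difference was -0.29 (standard error 0.359, limma adjusted p = 0.999), with a 95% interval of 0.464-fold to 1.44-fold. Blocking on the replicate number gave a standard error of 0.114 and an interval of 0.681-fold to 0.984-fold, with an unadjusted p of 0.0364 and an adjusted p of 0.141 by limma, so Asxl2 did not pass the threshold of 0.05 in either fit. Leaving out tamoxifen replicate 1 in the fit without the block turned the log2 difference to 0.044. With the block and both samples of 1 replicate number left out, chosen after seeing the data, the difference lay between -0.32 and -0.23.

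**Figure D1:**
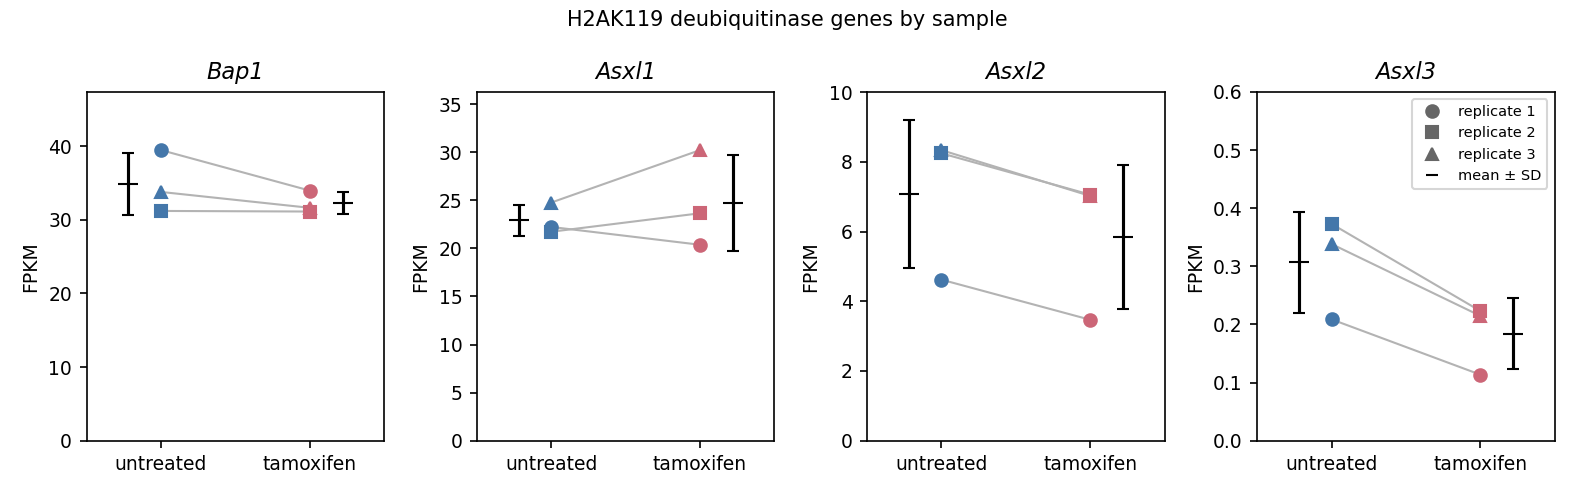
FPKM of Bap1, Asxl1, Asxl2 and Asxl3 in each sample (vertical axes from 0, each gene on its own scale), with grey lines joining samples of the same replicate number and black bars giving the mean ± SD of 3 samples. In all 4 genes the groups overlap. In FPKM as listed, the tamoxifen sample of Bap1, Asxl2 and Asxl3 lies below the untreated sample in 3 of 3 replicate numbers.

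Asxl3 (chr18:22503590-22688728, plus strand) is the third ASXL gene, known mainly from neural tissue. It was listed at 0.209, 0.373 and 0.338 FPKM in the untreated replicates and at 0.114, 0.223 and 0.215 FPKM with tamoxifen. These values are below the 0.5 FPKM in 3 of 6 samples that a gene needed to be tested. Replicate 1 was again the lowest of each group, and tamoxifen replicates 2 and 3 lay just above untreated replicate 1, so the groups overlapped by a narrow margin. The means were 0.307 ± 0.087 (SD, n = 3) and 0.184 ± 0.061 (SD, n = 3), a log2(FPKM + 0.1) difference of -0.52. The added 0.1 shrinks the observed ratio of so low a gene, and the log2 ratio of the group mean FPKM was -0.74. Without tamoxifen replicate 1 the log2(FPKM + 0.1) difference was -0.33. With no filter on low values the limma adjusted p was 0.969, and 0.188 with the block.

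Usp16 (chr16:87455230-87483758, plus strand) was listed at 0 in all 6 samples with the quantification status given as successful and an upper bound of 0.0272 to 0.0415 FPKM. No fold or test was computed for it. The end of Usp16 overlaps by 189 bp the end of Cct8, a chaperonin subunit gene on the other strand, which had 220.7 to 406.5 FPKM. Of the 69 loci of at least 2000 bp that overlapped by less than 500 bp a locus with a mean of at least 100 FPKM, 27.5% were at 0 in all 6 samples, against 9.43% of 16447 loci of that length that overlapped no other. Rfc4, which encodes a subunit of the clamp loader needed for DNA replication in every dividing cell, was also at 0 in all 6 samples and overlaps the highly expressed Eif4a2 by 185 bp. Rfc4 was singled out after its values had been seen. Usp16 and Rfc4 both meet the limits of length, overlap and partner level given above. The 27.5% is therefore not independent of them and is a description only. The listed 0 of Usp16 is given as listed and not as a measured lack of transcript, and the part of the overlap in it was not tested.

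Taking the measured members together, 0 of the 3 tested passed the threshold in limma (0 at an unadjusted p under 0.05 without the block and 1, Asxl2, with it, beside 4.79% and 29.8% of all genes tested), where over all genes tested limma called 0.0231% higher and 0.00769% lower without the block (0.0308% in all) and 10.4% with it. Groups without overlap were seen in 0 of 4 members with values above 0, against 8.49% of all genes tested. In FPKM as listed, Bap1, Asxl2 and Asxl3 were lower with tamoxifen in 3 of 3 replicate numbers, a pattern held by 28.2% of all genes tested. Asxl1 was lower in 1 of 3. FPKM summed over all genes differed between samples, from 5.494e+05 in untreated replicate 1 to 1.046e+06 in untreated replicate 2. The direction within a replicate number can depend on this scaling and was not recounted under another one. The median log2 difference of the 3 tested members was -0.10, beside -0.019 over all genes tested. The absolute log2 difference was smaller in 28.2% of genes than in Bap1, in 25.4% than in Asxl1 and in 66.6% than in Asxl2.

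**Figure D2:**
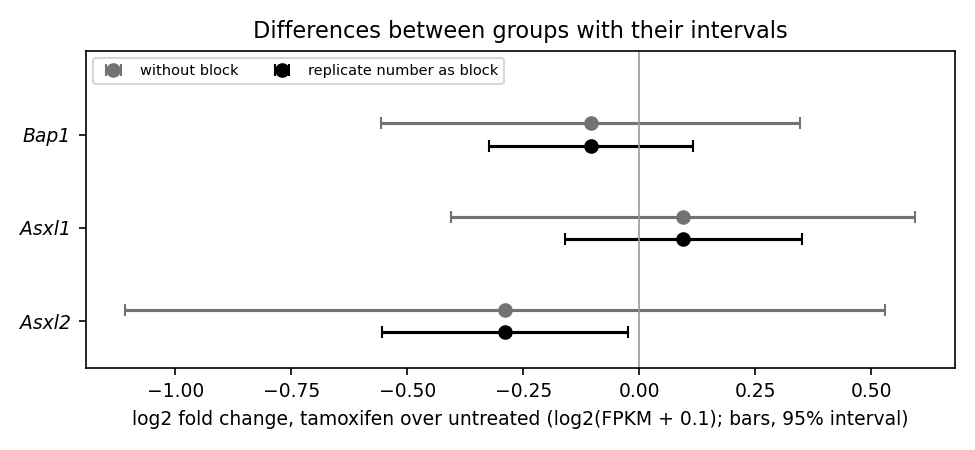
Log2 difference between tamoxifen and untreated samples (horizontal axis) for the 3 members tested, with 95% intervals from limma without a block in grey and blocked on the replicate number in black. The interval of Asxl2 reaches from -1.11 to 0.53 without the block and from -0.56 to -0.02 with it, and those of Bap1 and Asxl1 include 0 in both fits.

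The ASXL proteins bind BAP1 as alternatives, so their transcripts were also compared as ratios within a sample, which do not depend on how the sample was scaled. Asxl1 made up 82.2%, 71.6% and 74.0% of the summed FPKM of the 3 Asxl genes in the untreated replicates and 85.0%, 76.5% and 80.7% in the tamoxifen replicates. The share was higher with tamoxifen in 3 of 3 replicate numbers, by 2.89, 4.86 and 6.63 percentage points, yet the groups overlapped because untreated replicate 1 was above tamoxifen replicates 2 and 3. The means were 75.9% ± 5.53 and 80.7% ± 4.30 (SD, n = 3 each), a difference of 4.79 percentage points (exact permutation, two-sided, p = 0.3, where 3 against 3 cannot go below 0.1). Leaving out 1 library moved this difference between 2.62 (without untreated replicate 2; 2.63 without tamoxifen replicate 1) and 7.90 percentage points (without untreated replicate 1). Within replicate numbers the exact sign permutation p was 0.25, the smallest that 3 pairs allow. The log2 ratio of Asxl1 to Asxl2 was higher with tamoxifen by 0.39 on average (exact permutation p = 0.3; 0.18 without tamoxifen replicate 1, 0.22 without untreated replicate 2 and 0.65 without untreated replicate 1), and by 0.29, 0.35 and 0.54 in replicate numbers 1, 2 and 3. Asxl2 over Asxl3 was 22.1-fold, 22.1-fold and 24.7-fold in the untreated replicates and 30.6-fold, 31.7-fold and 32.7-fold with tamoxifen, values that rest on the low Asxl3 and were not tested.

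To set an eraser beside the writer, Bap1 was divided by Rnf2, the gene of RING1B, the main H2AK119 ligase in ESCs. Rnf2 had 34.6, 28.2 and 46.3 FPKM in the untreated replicates and 34.2, 31.0 and 47.6 with tamoxifen, so replicate 3 was the highest of each group. Bap1 was at 1.14, 1.11 and 0.730 times Rnf2 in the untreated replicates and at 0.994, 1.00 and 0.665 times Rnf2 with tamoxifen. Both transcripts were thus at similar levels, and replicate 3 held the lowest ratio in each group. The log2 ratio was lower with tamoxifen by 0.198, 0.141 and 0.136 in replicate numbers 1, 2 and 3, a mean difference of -0.16 (exact permutation, two-sided, p = 0.5). No ratio to Usp16 could be formed.

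**Figure D3:**
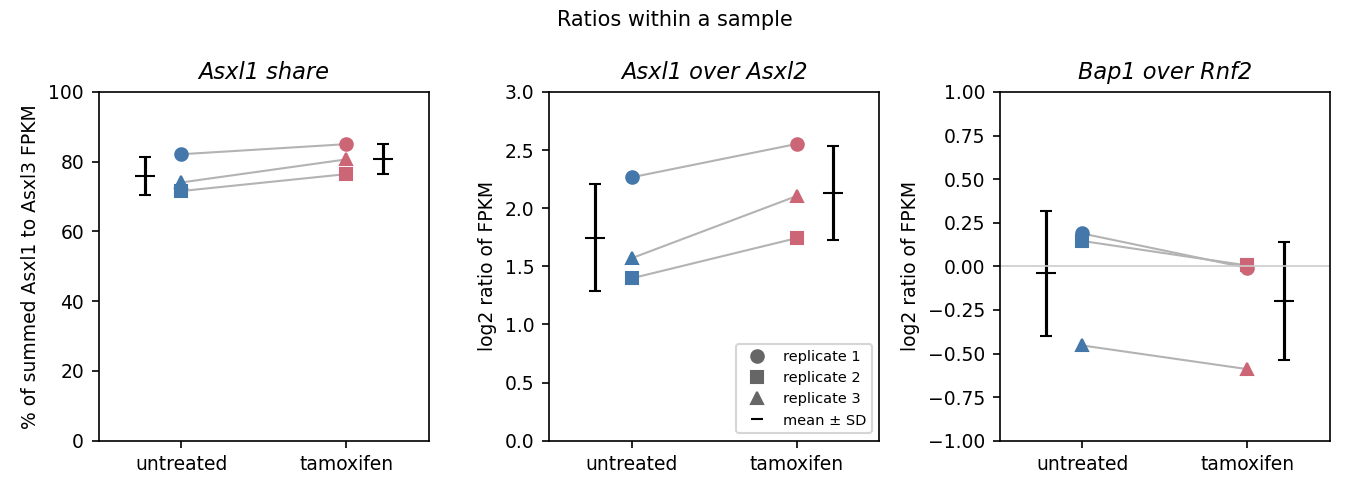
Ratios within each sample: the Asxl1 share of the summed Asxl FPKM in percent (left), the log2 ratio of Asxl1 to Asxl2 (middle) and the log2 ratio of Bap1 to Rnf2 (right), with lines joining replicate numbers and bars for the mean ± SD of 3 samples. The lines of the left and middle panels rise in 3 of 3 replicate numbers and those of the right panel fall in 3 of 3, while the groups overlap in each panel.

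Asxl2 was lowest in replicate 1 of both groups, and so was the summed level of markers of fibroblasts, the feeder cell type. The 8 fibroblast markers summed to 37.7, 101.6 and 76.8 FPKM in the untreated replicates and to 46.7, 99.2 and 74.9 with tamoxifen. Asxl3 had its lowest values in the same samples. Of these markers 6 of 8 were at 1 FPKM or more in all 6 samples, Postn was between 0.139 and 0.654 FPKM, and Lum was at 0 in untreated replicate 1. Replicate 1 was the lowest of both groups in 7 of 8 fibroblast markers, Twist2 being the exception, and in 25.4% of all genes tested. In replicates 2 and 3 the orders differed, since the marker sum was higher in replicate 2 while Asxl2 was within 2% between them in each group. The 8 ESC markers were all at 1 FPKM or more in every sample and summed to 2703 to 3717 FPKM untreated and 2982 to 5238 FPKM with tamoxifen, with replicate 1 the highest of each group. Dppa5a made up much of that sum, at 2221 FPKM in untreated replicate 1 and 3534 FPKM in tamoxifen replicate 1. Taken singly, 3 of 8 ESC markers were highest in replicate 1 of both groups, beside 31.6% of all genes tested. These orders are of FPKM as listed. FPKM summed over all genes was itself lowest in replicate 1 of each group, at 5.494e+05 untreated and 6.211e+05 with tamoxifen. The order of the samples can therefore differ under another scaling, for which it was not compared. The part of feeder RNA in the levels of Asxl2 and Asxl3 was not tested.

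**Figure D4:**
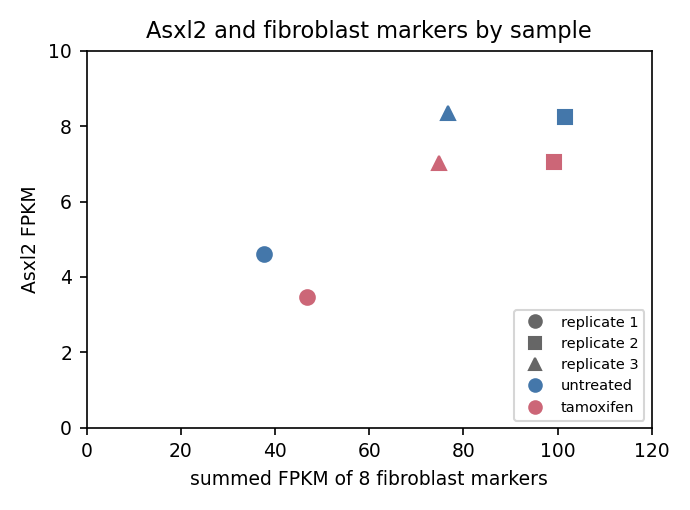
Asxl2 FPKM (vertical axis) against the summed FPKM of 8 fibroblast markers (horizontal axis), 1 point per sample, with colour for the group and shape for the replicate number. Both replicate 1 samples sit at the lower left, at 4.62 and 3.47 FPKM of Asxl2, apart from the other 4 samples at 7.02 to 8.34 FPKM.

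Around the members, 46 genes of the same pathway were taken in 5 lists, of which 45 could be tested. Without the block 0 passed the threshold in limma (2, Usp44 and Bcor, at an unadjusted p under 0.05), and with it 0 were higher and 2 lower, where 4.33% of all genes tested were higher and 6.06% lower. With the block 13 of the 45 were at an unadjusted p under 0.05, beside 29.8% of all genes tested. Over all genes tested, the fit without the block called 3 higher and 1 lower, with 623 (4.79%) at an unadjusted p under 0.05.

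The PR-DUB partners (Foxk1 and Foxk2, Hcfc1, Ogt, Kdm1b, Mbd5 and Mbd6), which bring BAP1 to chromatin or bind it, held 0 calls of 6 tested in either fit. Their median log2 difference was -0.20, and 5 of 6 differences were below 0, beside 6857 of 12997 over all genes tested. The widest were those of the methyl-CpG-binding family genes Mbd5, with a log2 difference of -0.38 (limma adjusted p = 0.999 and 0.297 with the block), and Mbd6, at -0.27 (0.999 and 0.132 with the block). Kdm1b, a histone H3 lysine 4 demethylase gene, was not tested, being listed at 4.48 FPKM in untreated replicate 2 and at 0 in the other 5 samples, and its end overlaps that of Dek by 513 bp.

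Among 14 other histone deubiquitinase genes and their cofactors, which act on H2A or H2B, 0 passed without the block and 1 was lower with it. That gene was Usp44, a ubiquitin-specific protease described for H2B in ESCs. Usp44 had 13.7, 13.3 and 11.6 FPKM in the untreated replicates and 4.81, 7.81 and 9.57 FPKM with tamoxifen. The groups did not overlap, and tamoxifen replicate 1 was the lowest of the 6 samples. The log2 difference was -0.84 (standard error 0.282, limma adjusted p = 0.740), and the adjusted p was 0.0447 with the block and 0.0567 when quantile normalization was added to the block. Usp44 was also past the threshold in the blocked fit with replicate number 1 or 3 left out, and not with number 2 left out (limma adjusted p = 0.172) or with no filter on low values (0.116). Usp27x, a subunit gene of an H2B deubiquitinase module, had a log2 difference of -0.37 (limma adjusted p = 0.999, and 0.147 with the block). The list's median was -0.048, with 7 of 14 differences below 0.

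BAP1's own enzyme family and the proteins that share the DEUBAD domain gave 0 calls of 5 tested, with a median log2 difference of 0.13. The largest were those of Uchl3, a small ubiquitin hydrolase gene, at 0.36 (limma adjusted p = 0.999 and 0.0737 with the block), and Uchl5, whose product works in the proteasome and in INO80, at 0.27 (0.999 and 0.107 with the block).

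On the writing side, the 15 genes of the H2AK119 ligase core and of variant PRC1 held 0 calls without the block and 1, lower, with it, and the median log2 difference was -0.054. The gene called was Bcor, which encodes the scaffold that joins PCGF1 to KDM2B. Bcor had 51.3, 60.0 and 64.5 FPKM in the untreated replicates and 5.82, 11.6 and 13.3 FPKM with tamoxifen. Every tamoxifen sample was below every untreated sample by a wide margin. The log2 difference was -2.58 (standard error 0.317, limma adjusted p = 0.0665, and 0.00151 with the block). A second gene name, 2900008C10Rik, covers 25893 bp of the same strand at the start of Bcor and is listed at 0 in all 6 samples, so how fragments were divided between both names is uncertain. Bcorl1, a paralog of Bcor, had a log2 difference of -0.57 (limma adjusted p = 0.999, and 0.111 with the block). Kdm2b itself was at 27.0, 21.5 and 27.7 FPKM untreated and 19.9, 21.9 and 25.0 with tamoxifen, a log2 difference of -0.19 (limma adjusted p = 0.999). This value covers the whole gene, does not resolve the floxed exon and so is no check of the deletion.

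The 5 readers of H2AK119ub1 gave 0 calls in either fit, with a median of -0.11. Dnmt3a, a de novo DNA methyltransferase gene, had a log2 difference of -0.56 (limma adjusted p = 0.999, and 0.0505 with the block), and Dnajc2, the gene of ZRF1, had 0.30 (0.999 and 0.0715 with the block).

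**Figure D5:**
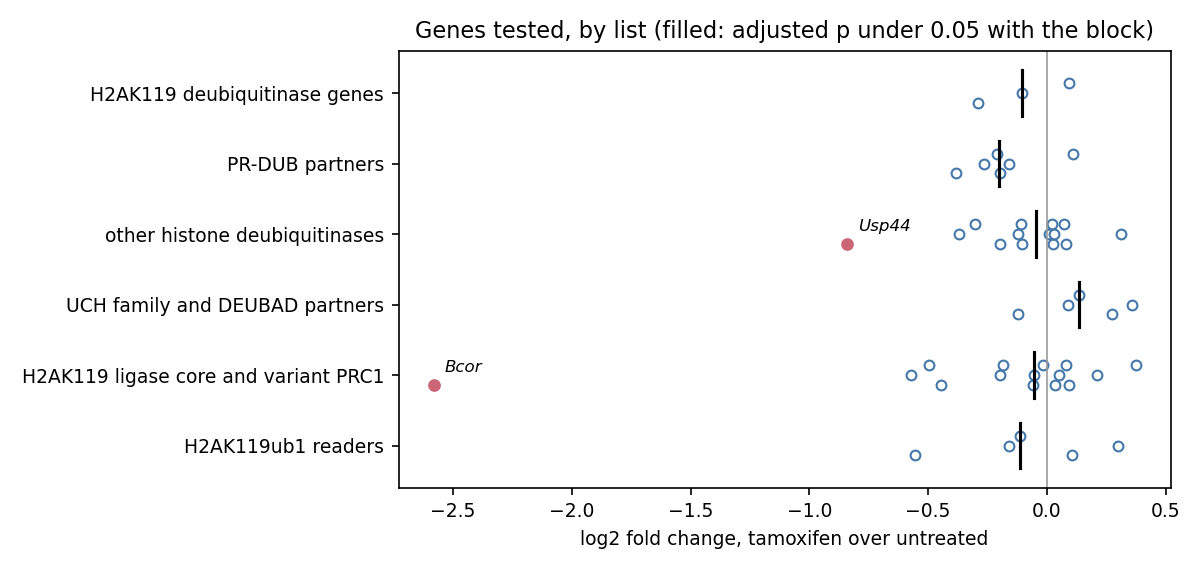
Log2 difference between tamoxifen and untreated samples (horizontal axis) of each gene tested, by list, with vertical bars at the list medians and filled points for adjusted p under 0.05 with the replicate block. The 3 members lie between -0.29 and 0.094, and the filled points are Usp44 at -0.84 and Bcor at -2.58.

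The profiles of the members over the 6 samples were compared with those of 11856 genes with a mean of at least 1 FPKM, by the root mean square difference of log2 values centred on each gene's mean. Most like Bap1 were Arfgap3 (0.0342), Pcgf2 (0.0350), a PRC1 subunit gene, and Trim41 (0.0383). For Asxl1 they were Kif15 (0.0431), Dnm1l (0.0463) and Sdad1 (0.0479), and for Asxl2 Zkscan1 (0.0330), 4930413G21Rik (0.0354) and Zdhhc5 (0.0390). Genes within 0.1 made up 2.07% for Bap1, 1.15% for Asxl1 and 0.287% for Asxl2. The members themselves deviated from their means by 0.119, 0.181 and 0.457 in the same order, so Bap1, the flattest of the 3, had the most neighbours of this kind. With 6 samples, likeness of this kind is a description only.

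Bap1, Asxl1 and Asxl2 each have a gene on the other strand that starts within 1 kb. Phf7 starts 271 bp from Bap1 and had 2.65 ± 0.94 FPKM untreated and 3.90 ± 2.06 with tamoxifen (SD, n = 3 each), a log2 difference of 0.48 (limma adjusted p = 0.999, and 0.109 with the block). 2500004C02Rik starts 329 bp from Asxl1, at 0.849 ± 0.173 and 0.708 ± 0.152 FPKM in the same order, a log2 difference of -0.23 (limma adjusted p = 0.999). 1110002L01Rik starts 110 bp from Asxl2, at 4.06 ± 1.57 and 4.44 ± 2.09 FPKM, a log2 difference of 0.068 (limma adjusted p = 1.00). None of the 3 passed the threshold in either fit. The libraries were made with a kit that marks strand, and whether strand was used in the quantification is not given in the sources used here.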

How the data were processed

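PolyA+ RNA of 3 untreated and 3 tamoxifen samples was sequenced as 51-bp paired-end reads. The authors aligned them to mm9 with TopHat2 (given as version 0.5) and quantified refGene models with Cuffdiff 2.1.1. The sample records also name Cufflinks 2.1.1, so the deposited values may come from either. The deposited values are FPKM with bounds and a status, without counts, so total depth is unknown. Upper bounds of 669 genes at 0 put relative depth between 0.656 and 1. The other 17 samples of the series (ChIP and input) were not analysed here.

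Rows were summed by gene name, 6 names with a failed status were left out, and genes with at least 0.5 FPKM in at least 3 of 6 samples were tested in R 4.3.3 by limma 3.58.1 after taking log2(FPKM + 0.1) (linear model, eBayes with a trend, Benjamini-Hochberg over 12997 genes, threshold 0.05). Samples sharing a replicate number in the labels deviated together from their group means (correlations across genes of 0.544, 0.605 and 0.506), so the number served as a block in a further fit. Single values were compared by exact permutation (Python 3.11.15, numpy 2.4.6). The order of levels was compared over 3 neighbouring pairs, because Usp16 was at 0.

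All members, plus genes of each list past the threshold in either fit and the 2 with the largest absolute difference, are named. The fits were tested on simulated data. The members and lists were chosen with earlier results of these data known. Alternatives covered the pseudocount, scaling, filter, trend, row choice, block and leaving out each sample.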

Additional observations from a re-analysis of the deposited data

How the results depend on the processing

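Bap1, Asxl1 and Asxl2 did not pass the threshold under any of the 21 alternatives with a test, nor Asxl3 under the 3 that tested it, and Bap1 stayed below 0 in all 22 alternatives. Asxl1 turned to -0.059 without tamoxifen replicate 3 and to -0.0016 with the block and replicate number 3 left out. Asxl2 turned to 0.044 without tamoxifen replicate 1, and the log2 ratio of Bap1 to Rnf2 to 0.038 without tamoxifen replicate 3. The cause was not tested. With the block and 1 replicate number left out, chosen after seeing the data, Asxl2 lay between -0.32 and -0.23 and Bap1 between -0.16 and -0.049. Scaling to TPM moved the median of all genes from -0.019 to 0.079, and to -0.11 without loci under 300 bp. Bap1, at -0.0037 under TPM, and Asxl1, at 0.0067 without short loci, came closest to a change of sign. Leaving out single samples gave log2 differences of -0.18 to -0.011 for Bap1, -0.059 to 0.22 for Asxl1 and -0.57 to 0.044 for Asxl2, -0.71 to -0.33 for Asxl3, 0.18 to 0.65 for the log2 ratio of Asxl1 to Asxl2, and -0.37 to 0.038 for the log2 ratio of Bap1 to Rnf2. Usp16 and its ratio to Bap1 gave no value under any setting.

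The replicate block changed no member's call. It raised the genes called among all tested from 3 to 563 higher and from 1 to 787 lower, and the genes of the 5 lists from 0 to 2. Adding quantile normalization to the block gave 558 higher, 586 lower and 1 list gene, and the block with no filter, chosen after seeing the data, 167, 241 and 1. With the block and 1 replicate number left out, also chosen after seeing the data, there were 45 to 785 higher, 66 to 1078 lower and 1 to 4 list genes, with 45, 66 and 1 when number 2 was left out and 444, 578 and 4 when number 3 was. Without the block, leaving out each sample gave 0 to 5 higher, 0 to 7 lower and 0 to 1 list genes (Bcor, without tamoxifen replicate 1 or 3). Requiring 1 FPKM or more in every sample gave 0 higher and 0 lower by limma, with 410 at an unadjusted p under 0.05, and a pseudocount of 1 gave 0 lower.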
